A study of Mus musculus with 6 samples.

Results

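The mitochondrial genome of the mouse encodes 13 proteins, and the mRNAs of all 13 were measured in EGFP+ cells sorted from pressure-overloaded hearts with and without deletion of *Hsp47*. Together they made up 29.4%, 23.5% and 28.0% of the summed linear value of the 3 control libraries and 7.17%, 7.23% and 4.70% of that of the 3 *Hsp47*-deleted libraries. Without *mt-Atp8*, which was far higher in the last of these controls than in the others, the shares were 29.0%, 23.2% and 19.5% against 6.98%, 7.04% and 4.58%. For 12 of the 13 mRNAs every *Hsp47*-deleted library lay below every control library (1.5% of all tested genes did), and *mt-Nd3* was the exception. None of the 13 passed an adjusted p of 0.05 (limma, 0.245% of all tested genes did), and 2 of the 3 controls came from another sequencing run. The genes were chosen by their symbol, as the rows of the deposited table of 28987 genes whose symbol starts with mt-. All 13 were among the 15109 genes with a mean linear value of at least 1 over the 6 libraries, which were the genes tested, and the lowest value of any of them in any library was 294. The group was taken up with earlier results of this same comparison known, so the differences between the groups are given as a description, and the p-values beside them come from the fit over all tested genes.

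The libraries were made from cells collected 4 weeks after pressure overload was imposed by transverse aortic constriction (TAC), in which the aorta is narrowed by surgery, in mice that were 8 to 10 weeks old at surgery. All mice carried a tamoxifen-activated Cre recombinase (MerCreMer) inserted at the *Postn* locus and a *Rosa26* EGFP reporter (R26eGFP) that is switched on by Cre, so that 1 *Postn* allele held the Cre, and all received tamoxifen, injected at 100 mg/kg and fed at 40 mg/kg according to the labels. The methods of the paper give other tamoxifen doses. The mice of the deleted group also had loxP-targeted *Hsp47* alleles, and the controls did not, so the Cre insertion, the reporter and tamoxifen were shared by both groups. Cre is made only where *Postn* is active, which limits the model to activated fibroblasts and their descendants, and the sort by EGFP keeps cells in which the reporter, but not necessarily *Hsp47*, was recombined. By Western blot of sorted EGFP+ myofibroblasts, the paper reports efficient loss of Hsp47 protein in the deleted group. The labels put control replicates 3 and 4 in one sequencing run (run1739, here the first run), and control replicate 2 with all 3 *Hsp47*-deleted replicates in another (run2675, the second run), so only control replicate 2 can be set against deleted cells of the same run. The labels name the libraries but not the animals behind them, and p-values measure the spread between these libraries.

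Values are linear values with the deposited log2(value + 1) undone, and the authors do not name their unit. Per-library values are listed in a fixed order, control replicates 3, 4 and 2 and then *Hsp47*-deleted replicates 1, 2 and 3. The linear values summed to between 690499 and 855404 per library, and the depth in reads is unknown, so no counting interval can be given. *Serpinh1*, which encodes Hsp47, was at 6.28, 6.10 and 7.60 on the log2 scale in the controls and at 6.87, 6.67 and 6.66 in the deleted libraries. This value covers the whole gene and not the loxP-targeted exon alone. The deleted libraries lay below the control of the second run but above both controls of the first run. The groups used here are therefore those of the labels. Of 12 fibroblast markers none was at 0 in any library. Their summed value was 9821 to 13064 in control libraries and 15804 to 17577 in *Hsp47*-deleted libraries, without overlap. All genes outside the mitochondrial genome also summed higher there without overlap, to 743309 to 815190 against 487480 to 582780 in controls. The gap is therefore not particular to fibroblast markers. The 24 cardiomyocyte markers summed to 178 to 463 in control libraries and to 378 to 504 in *Hsp47*-deleted libraries, at most 0.0623% of any library, with *Mybpc3*, *Myl3*, *Tnnc1* and *Nppb* at 0 in at least 1 library. Summed values of the endothelial (134 to 394 against 274 to 437) and mural markers (205 to 421 against 240 to 346) overlapped between control and *Hsp47*-deleted libraries, those of leukocyte markers were 41.1 to 126 against 132 to 166, with *Ptprc* listed at 0 throughout, and those of erythroid markers were 13.6 to 342 against 81.3 to 137. The part of these markers in the results was not tested.

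The mitochondrial genome is a small circle that is read from both strands into long precursor RNAs. In most of the genome tRNAs stand between the protein genes and act as punctuation, so that cutting out the tRNAs frees the mRNAs, which have no introns and almost no untranslated sequence. The proteins are core membrane subunits of complexes I, III, IV and V of oxidative phosphorylation, the machinery that passes electrons to oxygen and uses the resulting proton gradient to make ATP. All their partner subunits, all of complex II, the mitochondrial ribosomal proteins and the RNA polymerase of the organelle are encoded in the nucleus and imported. Because levels here are relative within a library, and the libraries are bulk RNA, fewer mitochondria-rich cells and less mitochondrial RNA per cell cannot be told apart.

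The annotation used here (GENCODE release M21 on GRCm38, the build that the submitters name as mm10) lists 37 genes on the mitochondrial genome. Of these, 2 rRNAs and 22 tRNAs have no row in the deposited table. Of the mRNAs 12 are read in the plus direction of the reference, from the heavy-strand promoter, and *mt-Nd6* alone in the minus direction. Each protein gene is counted here as an mRNA of its own, with the length of its annotated sequence. In the cell, however, 2 pairs of these genes share a message with overlapping reading frames. The overlaps are shown because the relation between the partners' values differed widely between libraries. The end of *mt-Atp8* and the start of *mt-Atp6* share 43 bases, and the end of *mt-Nd4l* and the start of *mt-Nd4* share 7 bases, in capitals in the following stretches of the plus strand (chrM:7897-7999 and chrM:10137-10203):
mt-Atp8/mt-Atp6: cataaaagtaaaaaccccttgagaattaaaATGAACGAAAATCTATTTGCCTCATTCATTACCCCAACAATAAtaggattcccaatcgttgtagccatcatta
mt-Nd4l/mt-Nd4: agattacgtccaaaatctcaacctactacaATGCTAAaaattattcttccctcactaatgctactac

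A further overlap of 14 bases joins the tails of *mt-Nd5* and *mt-Nd6*, which are read toward each other. The last 30 bases of each, with the stop codon in capitals, are shown because reads there fit both genes and the library preparation named in the labels does not mark strand (chrM:13536-13565, plus strand, and chrM:13552-13581, minus strand):
mt-Nd5 end: attatcttatactcaattaatctcgagTAA
mt-Nd6 end: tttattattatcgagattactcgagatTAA

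The *mt-Co3*, *mt-Nd4* and *mt-Cytb* sequences stop 1 base past their last whole codon, and the stop codon is completed only when the mRNA receives its poly(A) tail. Their last 30 bases, with the remaining T in capitals, are shown because the tail is thus part of the coding message in these genes (chrM:9361-9390, chrM:11515-11544 and chrM:15259-15288, all plus strand):
mt-Co3 end: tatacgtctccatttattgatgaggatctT
mt-Nd4 end: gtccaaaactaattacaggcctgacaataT
mt-Cytb end: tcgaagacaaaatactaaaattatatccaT

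Among the 7 subunits of complex I, the NADH dehydrogenase that starts the chain, 6 were lower in all *Hsp47*-deleted libraries than in all controls (1.5% of all tested genes were). *mt-Nd1* (chrM:2751-3707), which lies near the quinone-binding site, had linear values of 16761, 11756 and 16704 in the controls and of 5866, 5324 and 3993 in the deleted libraries. *mt-Nd2* (chrM:3914-4951), one of the antiporter-like subunits that move protons, was at 8771, 8310 and 5313 in the controls and at 1743, 1753 and 1317 in the deleted libraries. Control replicate 2 was thus the lowest control for *mt-Nd2* and close to the highest for *mt-Nd1*, and the groups were well apart for both. The difference on the log2 scale (deleted minus control) was -1.57 (SE 0.39) for *mt-Nd1* and -2.20 (SE 0.37) for *mt-Nd2*, which had the smallest adjusted p of the 13 (0.0837, limma with Benjamini-Hochberg adjustment over all tested genes).

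The other antiporter-like subunits differed between the groups by similar amounts. *mt-Nd4* (chrM:10167-11544) was at 15511, 14404 and 11033 in the controls and at 4002, 4135 and 2806 in the deleted libraries. *mt-Nd5* (chrM:11742-13565), the longest mRNA at 1824 nucleotides, was at 5791, 5741 and 4804 in the controls and at 1801, 1778 and 1240 in the deleted libraries. In both, control replicate 2 was the lowest control and *Hsp47*-deleted replicate 3 the lowest library of all. The log2 differences were -1.91 (SE 0.38) and -1.78 (SE 0.34), 3.76-fold and 3.42-fold lower.

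*mt-Nd6* (chrM:13552-14070, minus strand) is the only mRNA made from the light-strand promoter. Its values were 2931, 2801 and 2327 in the controls and 855, 954 and 615 in the deleted libraries, without overlap. Its log2 difference of -1.75 (SE 0.33) stood beside a median of -1.71 for the 12 heavy-strand mRNAs. The ratio of *mt-Nd6* to *mt-Nd5*, its neighbour on the opposite strand, stayed between 0.475 and 0.537 in all 6 libraries. The lower level in *Hsp47*-deleted libraries was therefore seen for the products of both strands, although without strand information reads from the overlap and from antisense RNA of either gene cannot be told apart.

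The remaining complex I genes are small membrane subunits with short reading frames. *mt-Nd4l* (chrM:9877-10173, 297 nucleotides) was at 31204, 45607 and 7995 in the controls and at 3450, 3721 and 2866 in the deleted libraries. The controls of the first run thus stood far above the control of the second run, which was still above every deleted library. *mt-Nd3* (chrM:9459-9806, 348 nucleotides) was at 507, 294 and 1174 in the controls and at 483, 491 and 438 in the deleted libraries, so the control of the second run was the highest library, a control of the first run the lowest, and the groups overlapped. The log2 differences were -2.76 (SE 0.65) and -0.25 (SE 0.50, adjusted p = 0.821, limma), and without control replicate 2 they were -3.50 and 0.28, so that the direction of *mt-Nd3* turned.

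*mt-Cytb* (chrM:14145-15288) encodes cytochrome b, which holds the quinone sites of complex III and is the only subunit of that complex made in the organelle. It was at 18057, 14195 and 12695 in the controls and at 5605, 5676 and 4496 in the deleted libraries. The groups did not overlap, and the log2 difference was -1.50 (SE 0.37).

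Complex IV, cytochrome c oxidase, has its 3 core subunits encoded here, and 2 of these mRNAs were among the most abundant RNAs of every library. *mt-Co1* (chrM:5328-6872), which carries the site where oxygen is reduced, was at 41972, 32366 and 28152 in the controls and at 12280, 15752 and 9084 in the deleted libraries. *mt-Co2* (chrM:7013-7696), which takes electrons from cytochrome c, was at 34111, 23330 and 26283 in the controls and at 10458, 8332 and 6581 in the deleted libraries. By rank within a library, *mt-Co1* was 1st to 3rd of all genes in controls and 4th to 6th in deleted libraries, and *mt-Co2* was 2nd to 4th and 6th to 9th. The log2 differences were -1.48 (SE 0.43) and -1.73 (SE 0.41).

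*mt-Co3* (chrM:8607-9390), the third core subunit, showed a smaller separation. Its values were 7180, 4146 and 10674 in the controls and 3909, 3849 and 2425 in the deleted libraries. Control replicate 4 exceeded the highest deleted library only slightly, and the log2 difference was -1.04 (SE 0.46, adjusted p = 0.334, limma).

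Complex V, the ATP synthase, has 2 of its subunits encoded by the overlapping pair shown above. *mt-Atp6* (chrM:7927-8607), which forms the proton channel with the rotating ring, was at 16691, 12784 and 13724 in the controls and at 5288, 5053 and 3301 in the deleted libraries, a log2 difference of -1.68 (SE 0.39). *mt-Atp8* (chrM:7766-7969), a small subunit of the stator with the shortest reading frame at 204 nucleotides, was at 3532, 2669 and 85429 in the controls and at 1664, 1699 and 1052 in the deleted libraries. The groups did not overlap for either gene, but in control replicate 2 *mt-Atp8* was the highest row of that library, ranked 1st, whereas it ranked 20th and 31st in the other controls. Its log2 difference of -2.69 therefore had the largest standard error of the 13 (1.20, adjusted p = 0.335, limma), and it ran from -3.59 without control replicate 4 to -1.09 without control replicate 2.

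**Figure D1:**
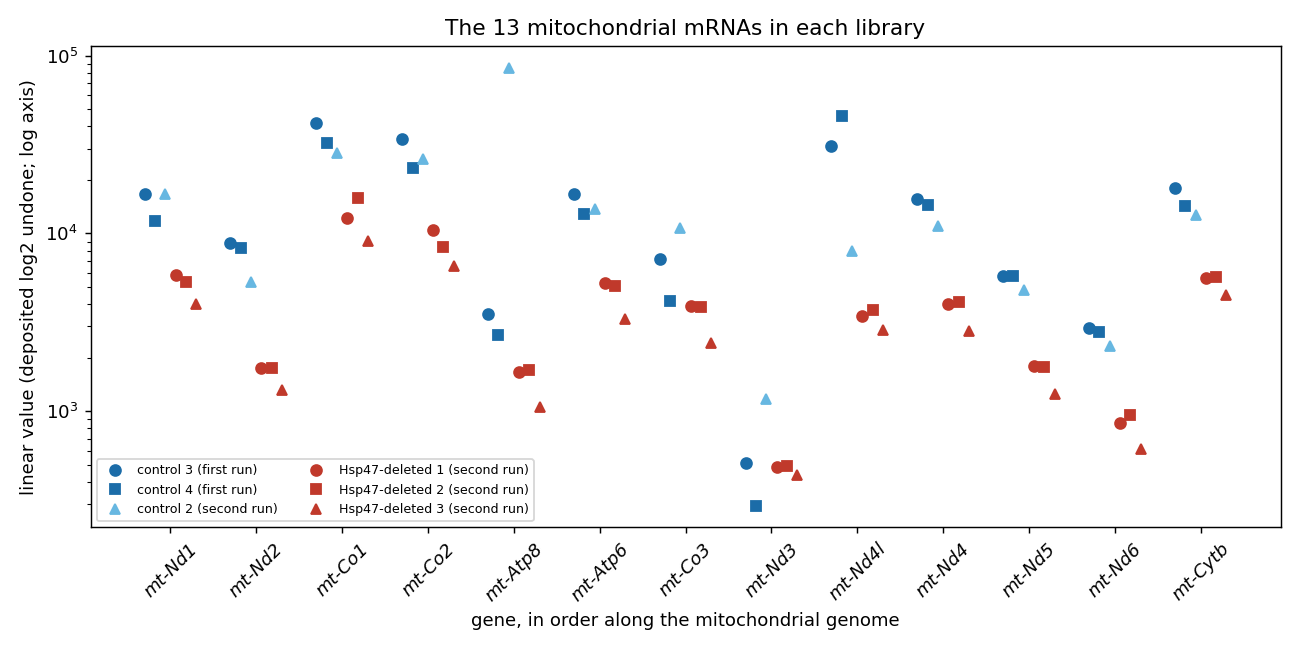
Linear value of each of the 13 mitochondrial mRNAs (log axis) in each of the 6 libraries, with genes in their order along the genome; blue symbols are control libraries (light blue is control replicate 2, the second run) and red symbols are *Hsp47*-deleted libraries. The red symbols lie below all blue ones for every gene except *mt-Nd3*, and *mt-Atp8* of control replicate 2 stands alone at 85429.

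Taking the 13 mRNAs as a group, all 13 had a negative log2 difference (25.5% of all tested genes did) and 12 had no overlap between the groups with the deleted libraries lower (1.5% of tested genes). As they are cut from shared precursors, the 13 are not independent of each other. The median log2 difference was -1.73, against 0.35 over all tested genes, and 79 of the 15109 tested genes had a difference more negative than -1.73. Those 79 include the members below their own median and *Gm10222*, a nuclear sequence whose values equal those of *mt-Nd4l*. At an unadjusted p under 0.05 (limma), 10 of the 13 were lower (0.755% of tested genes), and the 3 outside were *mt-Co3*, *mt-Atp8* and *mt-Nd3*. None of the 13 passed an adjusted p of 0.05, as against 37 of all tested genes (0.245%), and limma without a mean-variance trend also called 0 (0.232% of tested genes), with 11 at an unadjusted p under 0.05 (0.774% were lower there). An exact permutation test of 1 gene with 3 libraries against 3 cannot give a two-sided p under 0.10. Of the alternatives, 3 changed this count: with only genes of a mean of at least 5 kept, *mt-Nd2* passed (adjusted p = 0.0480, limma, as did 0.328% of the genes tested there), with run as a covariate *mt-Atp8* passed, and without control replicate 2, when run and group coincide, 11 passed, all but *mt-Co3* and *mt-Nd3*, among 2768 genes in all (18.3% of those tested).

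At this level of abundance few other genes behaved likewise. Of the 168 tested genes with a mean linear value of at least 500, a limit set after the values were seen, 16 (9.52%) had every *Hsp47*-deleted library below every control. Of these, 12 were the mitochondrial mRNAs and 1 was *Gm10222*, a nuclear sequence identical to *mt-Nd4l*. The other 3 were *B2m*, which encodes the light chain of MHC class I, *Mxra8* and *Myadm*, with log2 differences of -0.66, -0.58 and -0.50, all smaller in size than that of *mt-Co3*.

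The differences were also present within the second run, where 1 control can be set against 3 deleted libraries, without a test. Every one of the 39 values of the 13 mRNAs in *Hsp47*-deleted libraries was below that in control replicate 2, so 13 of 13 were lower in all 3 deleted libraries (11.7% of tested genes were). The mRNAs are cut from shared precursors and are all set against the same library, so the 39 values are not independent. The median difference from control replicate 2 was -1.62 on the log2 scale, against 0.29 for all tested genes. Over the 10 mRNAs longer than *mt-Nd3*, the differences from control replicate 2 lay between -1.22 (*mt-Co1*) and -1.74 (*mt-Nd1* and *mt-Nd2*), a narrower range than against all controls, where they ran from -1.04 (*mt-Co3*) to -2.20 (*mt-Nd2*). Of the 3 shortest mRNAs, whose controls differed most between the runs, *mt-Nd3* came to -1.32, *mt-Nd4l* to -1.26 and *mt-Atp8* to -5.89. With run as a covariate, the fit sets the deleted libraries against the single control of the second run, takes that control to vary like the other libraries, and so gave these same values. In it 13 of 13 were lower at an unadjusted p under 0.05 (1.27% of tested genes) and 1 was past an adjusted p of 0.05, *mt-Atp8* (adjusted p = 0.00189, limma, with 0.331% of tested genes called). These p-values test an arm of 1 library and add no replicate check to the comparison within the run, and the *mt-Atp8* difference is a value that rests on its level in control replicate 2 alone.

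**Figure D2:**
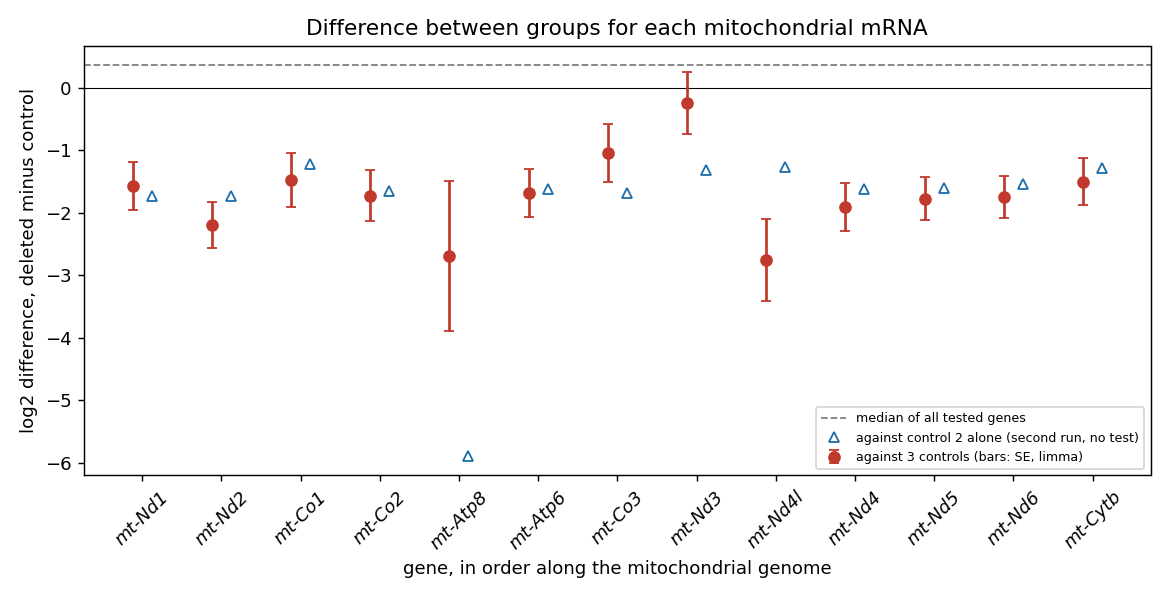
Log2 difference (deleted minus control) of each mitochondrial mRNA against the 3 controls (red, bars are the limma standard error) and against control replicate 2 alone (open blue triangles, no test); the dashed line is the median of all tested genes, 0.35. All points lie below 0, and the triangles of the genes other than *mt-Atp8* lie between -1.22 and -1.74.

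As a share of the library, the mitochondrial mRNAs averaged 27.0% ± 3.08 of the summed linear value over the controls and 6.37% ± 1.44 over the *Hsp47*-deleted libraries (SD, n = 3 each). The control libraries were similar in total share but not in what made it up. Complex IV mRNAs summed to 83262, 59843 and 65109 in the controls and to 26648, 27933 and 18089 in the deleted libraries. In control replicate 2 *mt-Atp8* alone exceeded the sum of complex IV, and in control replicate 4 *mt-Nd4l*, tied with a nuclear copy of identical sequence, was the highest row. Without *mt-Atp8* the shares were 29.0%, 23.2% and 19.5% in the controls and 6.98%, 7.04% and 4.58% in the deleted libraries. Without *mt-Atp8*, *mt-Nd4l* and *mt-Nd3*, a choice made after the values were seen, they were 25.6%, 18.3% and 18.4% against 6.52%, 6.55% and 4.21%, so the groups remained apart.

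**Figure D3:**
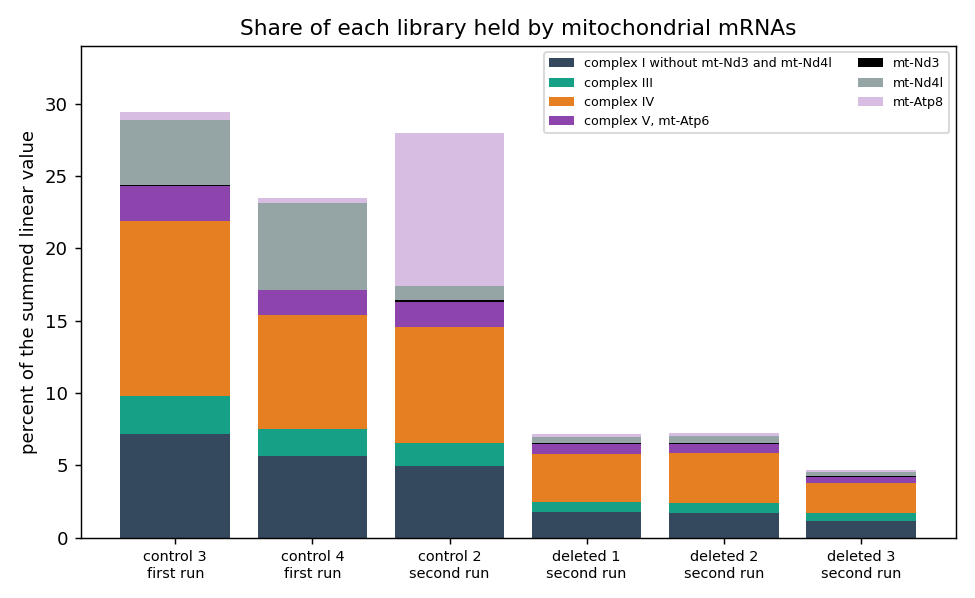
Percent of the summed linear value of each library held by the mitochondrial mRNAs, stacked by complex with the 3 shortest mRNAs (*mt-Nd3*, *mt-Nd4l* and *mt-Atp8*) shown apart. Control bars reach 23.5% to 29.4% and *Hsp47*-deleted bars 4.70% to 7.23%; *mt-Nd4l* is wide in the controls of the first run and *mt-Atp8* in control replicate 2.

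The rest of the library had higher sums where the mitochondrial mRNAs had lower ones. Genes outside the mitochondrial genome summed to 487480, 580822 and 582780 in the controls and to 743309, 750454 and 815190 in the deleted libraries. When each library was rescaled to that sum, the median log2 difference over all tested genes moved from 0.35 to -0.05, and that of the 13 mRNAs from -1.73 to -2.22. The direction of all 13 differences was negative under this scaling, from -3.24 for *mt-Nd4l* to -0.74 for *mt-Nd3*.

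In rank terms, 7 of the 10 highest rows were mitochondrial mRNAs in each of the control libraries, and 4, 3 and 2 of them in the deleted libraries. All but 1 of the 13 were among the 50 highest rows in control replicates 3 and 4, and all 13 in control replicate 2. In the deleted libraries 8 to 11 were. They thus still ranked among the most abundant RNAs there.

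The relation between the overlapping reading frames did not follow the groups. *mt-Atp8* over *mt-Atp6*, 2 frames of a single mRNA, was 0.212 and 0.209 in control replicates 3 and 4, 6.22 in control replicate 2 and 0.315, 0.336 and 0.319 in the deleted libraries. *mt-Nd4l* over *mt-Nd4*, also frames of a single mRNA, was 2.01 and 3.17 in control replicates 3 and 4, 0.725 in control replicate 2 and 0.862, 0.900 and 1.02 in the deleted libraries. For *mt-Nd4l* the 4 libraries of the second run were alike and those of the first run higher, whereas for *mt-Atp8* the single library of control replicate 2 stood apart. The ranges of the 3 controls on the log2 scale were 5.00 for *mt-Atp8*, 2.51 for *mt-Nd4l* and 1.99 for *mt-Nd3*, the 3 shortest mRNAs, and 0.27 (*mt-Nd5*) to 1.36 (*mt-Co3*) for the other 10. Among the *Hsp47*-deleted libraries, all of the second run, the ranges were 0.16 (*mt-Nd3*) to 0.79 (*mt-Co1*) for all 13.

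**Figure D4:**
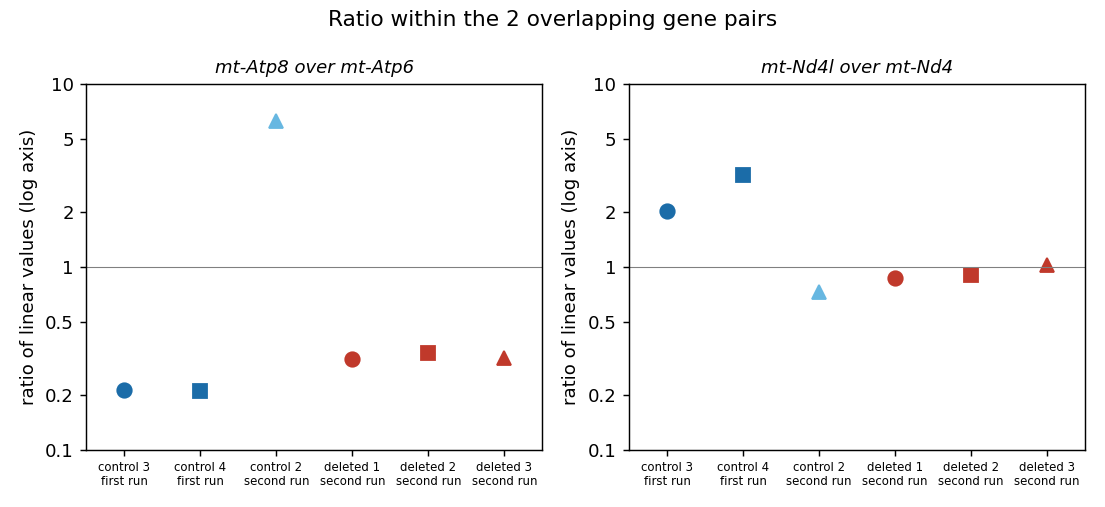
Ratio of linear values (log axis) within the overlapping gene pairs in each library, with *mt-Atp8* over *mt-Atp6* on the left and *mt-Nd4l* over *mt-Nd4* on the right; the grey line marks a ratio of 1. Control replicate 2 stands at 6.22 on the left, and the controls of the first run stand at 2.01 and 3.17 on the right, above the other libraries.

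The makeup of the longer mRNAs also differed by run, and the part of run in these ratios was not tested. As a percent of the sum of the 10 longer mRNAs, *mt-Co3* was at 4.28 and 3.19 in the controls of the first run, at 8.10 in control replicate 2 and at 7.55, 7.32 and 6.76 in the deleted libraries. *mt-Atp6* kept a nearly constant part, 9.85 to 10.4 in controls and 9.21 to 10.2 in deleted libraries. *mt-Nd2* and *mt-Nd4* were the only ones of the 10 whose parts did not overlap between the groups. The parts belong to a single sum and so are not independent, and no matching share was computed for other genes. *mt-Nd2* averaged 5.22 ± 1.18 over the controls and 3.46 ± 0.19 over the deleted libraries (SD, n = 3 each), and *mt-Nd4* 9.57 ± 1.39 and 7.80 ± 0.07. Both were lowest among controls in control replicate 2, at 4.03 and 8.38, nearest to the deleted libraries of its run.

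Nuclear copies of mitochondrial DNA limit what some of these values can say. The annotation holds 11 nuclear transcripts at least 95% identical to a mitochondrial mRNA over at least 80% of their length, of which 4 are rows of the table. *Gm10222* (chr1:24612407-24612700, minus strand) matches all of its 294 bases to *mt-Nd4l* without a difference, and its values were the same as those of *mt-Nd4l* in every library, so the genes cannot be told apart and a value for *mt-Nd4l* may be split between them. *Gm13340*, a copy of *mt-Co1*, was at 6.83 to 15.8 in all libraries, *Gm13341*, a copy of *mt-Co2*, at 15.7 to 23.6 in controls and 6.40 to 7.94 in deleted libraries, and *Gm13339*, a copy of *mt-Nd2*, at 0.831 to 2.63. These values are small beside those of their mitochondrial counterparts, and adding the 4 copies in the table left every direction as it was. The other 7 copies have no row and could not be added. Of these, *Gm10925*, *Gm28437*, *Gm28661* and *Gm28439* are 100% identical to parts of *mt-Atp6*, *mt-Co3*, *mt-Co2* and *mt-Nd4*. Of the 31-base stretches of *mt-Co2*, *mt-Co3*, *mt-Atp6* and *mt-Nd3*, 98.1% or more occur in annotated nuclear transcripts. The part of such copies in these values was not tested. *mt-Nd1* shares no stretch of 31 bases with any annotated nuclear transcript and was 2.98-fold lower in deleted libraries, so a lower value was also measured in a gene without an annotated nuclear copy.

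Set against all 3 controls, most nuclear partners of these subunits had higher values. Of 74 tested nuclear subunits of complexes I to V, 68 had a higher mean in *Hsp47*-deleted libraries (74.5% of all tested genes did) and 6 a lower one, with a median log2 difference of 1.01, and 0 had all deleted libraries below all controls (1.5% of tested genes did). None passed an adjusted p of 0.05 (0.245% of tested genes did), and 16 were higher at an unadjusted p under 0.05 (limma; 14.5% of tested genes). The medians were 0.88 for complex I (36 tested), 0.90 for complex II (4), 1.10 for complex III (9), 1.07 for complex IV (11) and 0.86 for complex V (14). Those with the smallest p were *Ndufa12* (1.23) and *Ndufa3* (2.64) of complex I, *Sdha* (1.17) and *Sdhb* (1.16) of complex II, *Cyc1* (1.09) and *Uqcrh* (1.10) of complex III, *Cox4i1* (2.92) and *Cox8a* (1.20) of complex IV, and *Atp5d* (2.05) and *Atp5g1* (2.05) of complex V, given as log2 differences, with adjusted p-values of 0.274 or more (limma).

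Many of these nuclear values, but not all, moved with run. *Cox4i1* was at 3.70 and 2.40 on the log2 scale in control replicates 3 and 4, at 6.74 in control replicate 2 and at 7.38, 7.05 and 7.15 in the deleted libraries. Control replicate 2 thus lay with the deleted libraries of its own run. *Ndufa12* did not follow run in this way, at 1.63, 2.38 and 1.84 in the controls and 2.39, 3.52 and 3.63 in the deleted libraries, and its mean in deleted libraries was 1.34 above control replicate 2. *Sdha* and *Cyc1* were 0.67 and 0.65 above it. Against control replicate 2 alone, 50 of the 74 nuclear subunits had a lower mean in deleted libraries (28% of tested genes did), 24 were lower in all 3 deleted libraries (11.7% of tested genes), the median log2 difference was -0.14 against 0.29 for all tested genes, and that of complexes I to V ran from -0.21 (complex I) to 0.07 (complex III). The same comparison gave -1.62 for the mitochondrial mRNAs, and with all controls -1.73. The median of the mitochondrial mRNAs was thus nearly alike in both comparisons, and that of the nuclear subunits was 1.01 in one and near 0 in the other, a difference between comparisons that was not tested.

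The lists of genes that make and maintain mitochondrial RNA had positive medians on the deposited scale, with shares of higher genes to be read against the 74.5% of all tested genes that were higher. Of 11 tested genes of mitochondrial transcription and replication, 8 were higher in the mean, close to that share, with a median log2 difference of 0.41 and none passing the adjusted threshold. *Tfam*, which packages the mitochondrial DNA and activates its promoters, was at 2.97, 3.10 and 2.87 on the log2 scale in the controls and at 3.86, 3.56 and 4.78 in the deleted libraries. The groups did not overlap (18.3% of tested genes were higher in this way), and the difference was 1.09 (adjusted p = 0.291, limma). *Tfb2m*, the transcription factor that opens the promoter for the polymerase, differed by 1.12 (adjusted p = 0.301, limma). Both were also higher than in control replicate 2 alone, by 1.20 and 1.33.

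Among 21 tested genes of mitochondrial RNA processing and decay, 13 were higher in the mean and 8 lower, a smaller share than among all tested genes, with a median log2 difference of 0.23. *Hsd17b10*, a subunit of the RNase that cuts the 5′ ends of tRNAs, and *Ptcd1*, a pentatricopeptide RNA-binding protein, had the smallest p, with differences of 1.15 and 0.77 (adjusted p = 0.297 and 0.317, limma). Of 79 tested mitochondrial ribosomal proteins 74 were higher, with a median of 0.64, led by *Mrpl49* (1.51) and *Mrps9* (1.17), with adjusted p = 0.193 and 0.281 (limma). Against control replicate 2 alone the median of these ribosomal proteins was 0.12, beside 0.29 for all tested genes. In that comparison 29 of the 79 had a lower mean in deleted libraries (28% of tested genes did). Of 6 tested regulators of mitochondrial biogenesis 4 were higher, with a median of 0.31, and *Nrf1* (0.56) and *Gabpb1* (-0.71) had the smallest p. Of 16 tested markers of mitochondrial mass 14 were higher, with a median of 0.23, and *Phb* (1.01) and *Tomm22* (1.06) had the smallest p, all with adjusted p-values of 0.304 or more (limma).

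No gene of these 5 lists was called. The medians of RNA processing and decay, biogenesis regulators and mass markers lay below that of all tested genes (0.35), and with libraries rescaled to the genes outside the mitochondrial genome they turned to -0.23, -0.10 and -0.25, while those of transcription and replication and of ribosomal proteins were 0.14 and 0.17 beside -0.05 for all tested genes. Centring on the median and quantile normalization also turned the median of transcription and replication, to -0.01 and -0.09. The direction of these 4 lists thus depends on the scaling, whereas the nuclear subunits of oxidative phosphorylation kept a positive median under each scaling with all controls (0.56 to 1.01) and the mitochondrial mRNAs a negative one (-1.13 to -2.22).

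**Figure D5:**
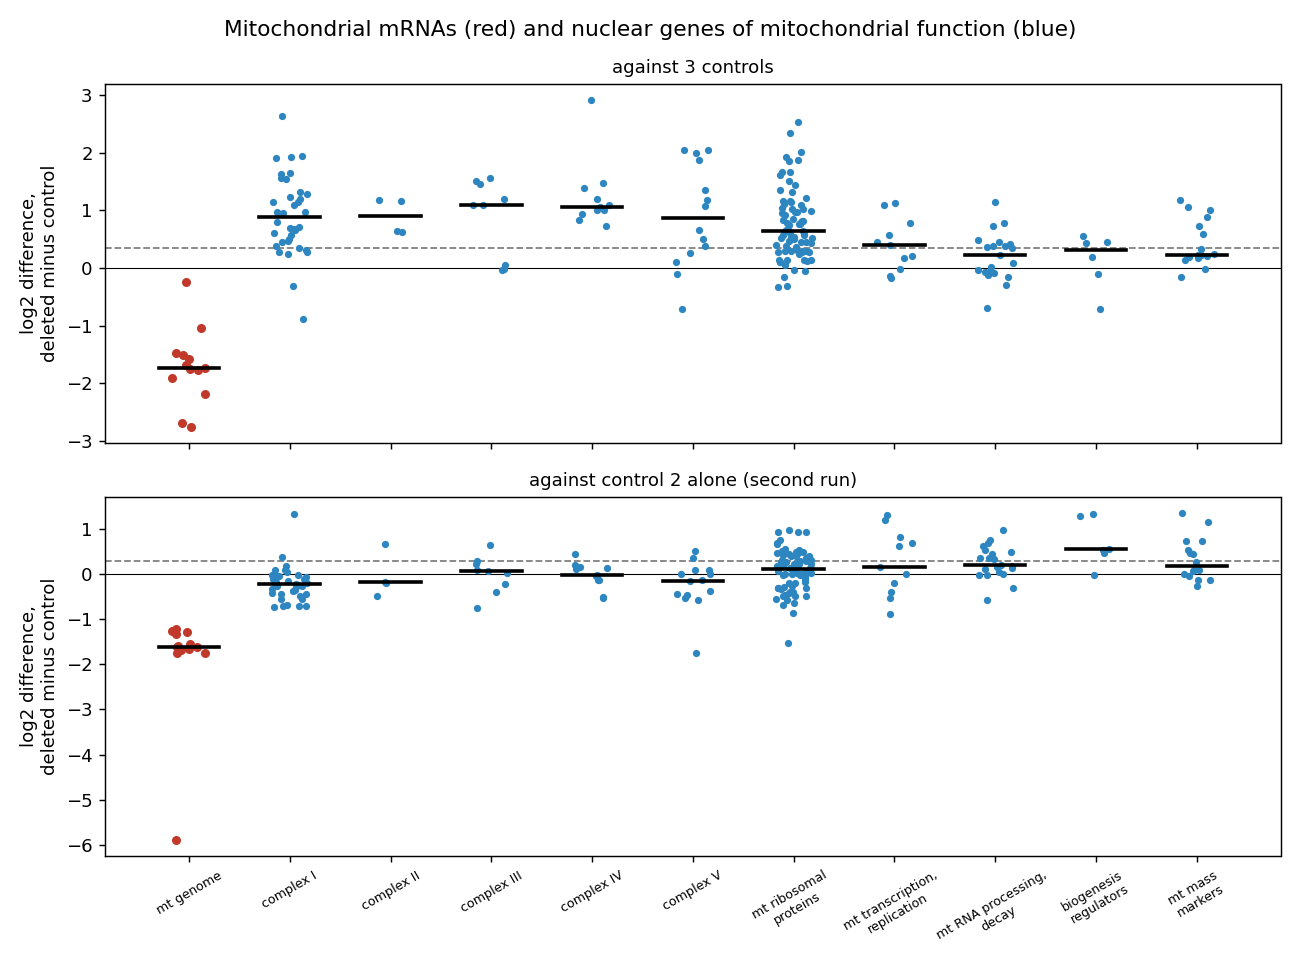
Log2 difference (deleted minus control) of each mitochondrial mRNA (red) and of the tested nuclear genes in each list (blue), against 3 controls (top) and against control replicate 2 alone (bottom); black bars are medians and the dashed line is the median of all tested genes (0.35 and 0.29). The red points have a median of -1.73 above and -1.62 below, and the blue points of complexes I to V lie mostly above 0 in the top panel (pooled median 1.01) and around 0 in the bottom one (-0.14).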

How the data were processed

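In the deposited table, which holds 28987 genes in 6 libraries, the authors give values as log2(value + 1), made, per the labels, from amplified total RNA (Ovation RNA-Seq System v2, Nextera XT). Kallisto and mm10 are named in the submitters' processing notes and AltAnalyze in the paper, without versions, and the linear unit is not named. Deposited means and comparisons (folds and p-values) were not used. Genes with a mean linear value of at least 1 (15109, with 13878 left out) were tested between groups (R 4.3.3, limma 3.58.1: lmFit, eBayes with a trend, no covariate, Benjamini-Hochberg adjustment), which was tested on simulated data. Positions and sequences came from GENCODE M21, and copies were found with blastn 2.17.0 (95% identity over 80% of the transcript) and shared stretches with 31-base words. The members, lists and named genes (every mitochondrial mRNA, and the 2 genes of each nuclear list with the smallest p) were chosen with earlier results of these data known. The alternatives were run as a covariate or the second run alone, a replicate block, other filters, pseudocounts (0.1 and 5) and scalings, and each library left out.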

Additional observations from a re-analysis of the deposited data

How the results depend on the processing

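The direction of 233 of 234 differences of single mitochondrial mRNAs was negative under the alternatives. This count includes settings that cannot change a difference, namely the other filters and limma without the trend. The second run alone also repeats the values of the run covariate, so the 234 are not independent checks. *mt-Nd3* ranged from -0.71 to 0.28 with each library left out and was positive without control replicate 2. The number called at an adjusted p under 0.05 (limma) was 0 as reported (0.245% of all tested genes). It was 1 with run as a covariate (0.331%) and 1 with a mean of at least 5 (0.328%). When each library was left out it was 0 to 11. The 11 came without control replicate 2, where run and group coincide and 18.3% of tested genes were called. The median log2 difference of -1.73 became -1.13 with quantile normalization, -2.14 when centred on the median and -2.22 when rescaled to genes outside the mitochondrial genome, and lay between -1.56 and -1.81 with each library left out. The difference in share of -20.6 percentage points became -24.0 with nuclear copies added, -17.7 without *mt-Atp8* and -15.0 without the 3 shortest mRNAs (the last 2 chosen after seeing the data), and -19.4 to -22.3 with each library left out. The median of the nuclear subunits of complexes I to V, pooled after seeing the data, was 1.01, -0.14 with run as a covariate, and 0.68 to 1.46 with each library left out. The replicate block gave 0 calls, also over all tested genes, and a median of -1.86. It put 2 of 13 at an unadjusted p under 0.05 (limma), and the share of all tested genes was not computed. Only numbers 2 and 3 occur in both groups. The deviations of control replicate 2 correlated at 0.16 with deleted replicate 2 and at 0.38 with deleted replicate 1. Those of control replicate 3 correlated most with deleted replicate 3 (0.23, against -0.22 and -0.08). These few values cannot settle whether the numbers pair the samples. With no filter on low values 1 of 13 had an unadjusted p under 0.05 (limma), for which no share of all genes was computed, and 0 were called, against 28 genes in all. The share with rRNAs and tRNAs added was not run, since those genes have no row in the deposited table. Causes were not tested. The depth is unknown, and 1 control in the second run limits every comparison within that run.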
